A study of Homo sapiens with 78 samples.

Results

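CD44 and CD47, 2 surface glycoproteins whose transcripts are alternatively spliced, were followed at the level of the gene and of each transcript in single cells. The members were chosen by name: every Ensembl transcript of both genes among the quantified targets, that is 38 of CD44 and 5 of CD47, 43 of 200206 transcripts and 2 of 58388 named genes. Each well held 1 sorted cell, from the melanoma line A375 or from Jurkat, a line of T cell leukemia, both human. Total RNA libraries were made with reagent kit #634413 (SMARTer Stranded v2 Pico Input) or kit #634444 (SMART-Seq Stranded), which gave 21 A375 wells and 18 Jurkat wells per kit and 78 wells in all. All cells were untreated as far as the labels say. A375 cells were stained with an antibody against CD47 and collected in PBS, whereas Jurkat cells were stained with an antibody against CD81 and collected in lysis solution. The sort gates are not given in the sources used here, so antibody, buffer and cell line cannot be told apart. Wells of a group carry neighbouring index numbers, and the study describes pooling of libraries by 8, so the spread between wells may also hold differences between pools. Nothing in the labels ties the wells of a line to separate cultures, so the p-values below measure the spread between wells.

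CD44 is the main cell surface receptor for hyaluronan, a polysaccharide of the extracellular matrix, and it links that matrix to the actin skeleton. The standard form skips a block of variable exons (v2 to v10 in human), whereas variant forms include some or all of them and carry a longer stem outside the cell. CD47 is found on nearly all cells, binds SIRPA on macrophages as a signal against phagocytosis and also binds thrombospondin-1. CD47 transcripts differ in the short exons that code for the end of the cytoplasmic tail and in the length of the 3′ untranslated region.

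CD44 (ENSG00000026508) lies on the plus strand of chromosome 11 in GRCh38, at chr11:35138882-35232402, and CD47 (ENSG00000196776) on the minus strand of chromosome 3, at chr3:108043091-108091862. In the standard transcript CD44-201 (ENST00000263398), exon 5 (chr11:35189835-35190065) is joined to the first constant exon after the variable block (chr11:35214852-35214914). In CD44-210 (ENST00000434472), the variant transcript with the most counts, it is joined to v10, an exon of 204 bases (chr11:35211246-35211449). These junctions set the most abundant CD44 forms apart. They are given as the last 30 bases of exon 5 in lower case and the first 30 bases of the next exon in capitals.
CD44-201 junction: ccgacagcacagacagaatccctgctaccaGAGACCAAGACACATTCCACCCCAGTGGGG
CD44-210 junction: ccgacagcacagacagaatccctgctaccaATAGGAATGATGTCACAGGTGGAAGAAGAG

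The CD47 transcripts were separated by the coding exons of the tail. CD47-201 (ENST00000355354, short tail) carries exon 8 (chr3:108051939-108051970) only, CD47-205 (ENST00000517766, middle tail) adds exon 9 (chr3:108050578-108050602), and CD47-202 (ENST00000361309, long tail) adds exon 10 (chr3:108049619-108049651) as well. CD47-203 (ENST00000398258) is a partial model of the long tail, and CD47-205 is partial as well. CD47-204 (ENST00000471694) is annotated as a retained intron without a reading frame. The coding sequence from exon 8 to the stop codon shows what the tail forms share. The alternative exons 9 and 10 are in capitals.
CD47-201: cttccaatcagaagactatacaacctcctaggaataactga
CD47-205: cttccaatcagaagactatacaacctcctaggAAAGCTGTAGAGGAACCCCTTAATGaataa
CD47-202: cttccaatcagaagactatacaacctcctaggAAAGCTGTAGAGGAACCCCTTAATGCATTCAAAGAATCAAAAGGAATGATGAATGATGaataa

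**Figure D1:**
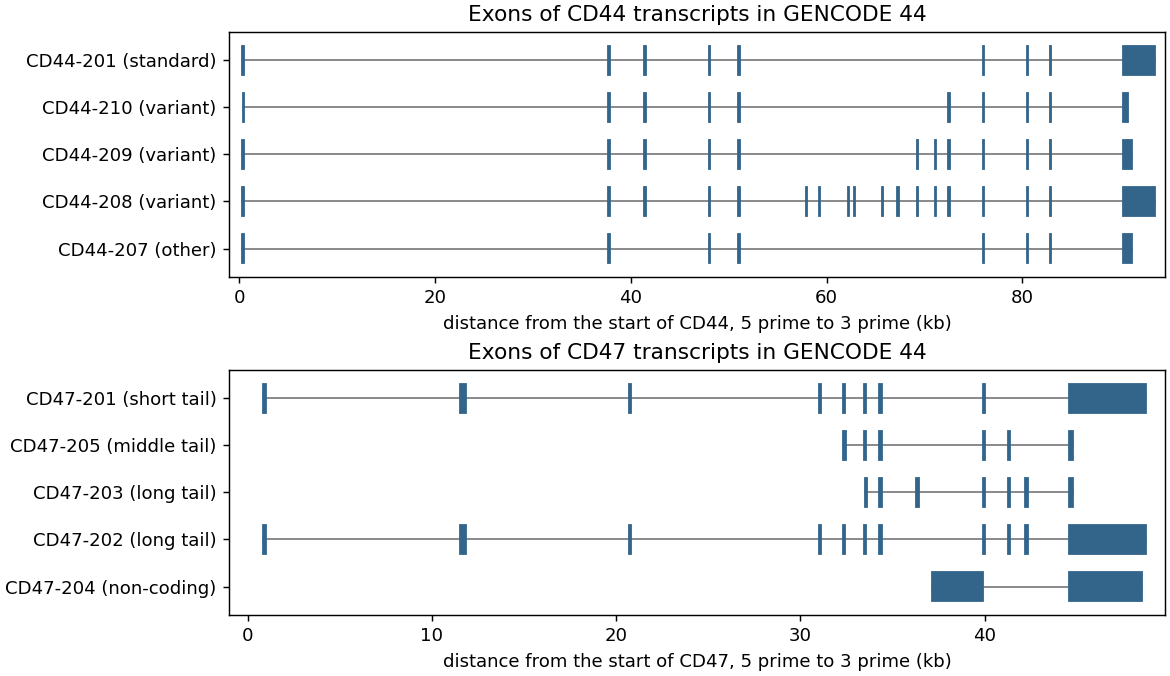
Exons (boxes) and introns (lines) of CD44 and CD47 transcripts in GENCODE 44, against the distance from the start of the gene in kb; the shortest exons are widened to stay visible. CD44-210 adds v10 and CD44-208 all 9 variable exons to the standard form, and the CD47 transcripts differ near their 3′ end.

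The targets do not represent all ends equally. CD44-201 was quantified as a target of 4589 bases. CD44-208, with all 9 variable exons, shares the 3′ end of CD44-201 in GENCODE 44, but its target of 3046 bases was 2385 bases shorter than that model. Likewise, the target of CD47-202 (1285 bases) was 4007 bases shorter than its model, whereas CD47-201 was quantified over 5020 bases. Reads from the far 3′ ends could therefore be assigned to CD44-201, CD47-201 or CD47-204 whatever the splice form. For CD47, tail form and length of the 3′ end cannot be told apart in these values. For CD44, the share of CD44-201 likewise mixes splice form with the length of the 3′ end.

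Totals per well, with the ribosomal DNA target and without spikes, ran from 909 to 2567265 estimated counts, and counts on transcripts from 250 to 2356198. All 9 wells below 203424 counts, 25% of the median total, were A375 wells, 4 with kit #634413 and 5 with kit #634444. Among the deeper wells, 2 A375 wells of kit #634413 held only 107854 and 143428 counts on transcripts, as ribosomal DNA took 53.4% and 48.5% of their totals. Summed markers went with the labels, since the T cell list led in 18 of 18 Jurkat wells of each kit, while the melanoma line list led in 19 and 17 of 21 A375 wells and the lists were equal in the other 2 and 4. The summed T cell markers reached at most 80.5 and 45.2 counts-per-million (CPM) in A375 wells, against at least 1421 and 1630 CPM in Jurkat wells. CPM were taken over the counts on transcripts. Of the 12 melanoma line markers, 9 had no count in Jurkat with kit #634413 and 3 had none with kit #634444.

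CD44 was abundant in most A375 wells and nearly absent from Jurkat. With kit #634413, A375 wells held 0 to 1840 estimated counts of CD44, with a median of 475, which is 0 to 1138 CPM with a median of 563 CPM. With kit #634444 they held 0 to 1860 counts with a median of 435, or 0 to 1200 CPM with a median of 515 CPM. In Jurkat, CD44 was at 0 in all 18 wells of kit #634413, and 4 of 18 wells of kit #634444 had 1 count each. At least 1 count was found in 17 of 21 A375 wells with each kit, so the lines overlapped only through A375 wells with 0 or 1 count.

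The A375 wells with little CD44 were those with the lowest totals. With kit #634413, 6 wells had 0 or 1 count of CD44 and totals of 909 to 278553, whereas the other 15 wells had 118 to 1840 counts of CD44 and totals of 398251 or more. With kit #634444, 5 wells had 0 or 1 count and totals of 1230 to 80958, and the other 16 had 83.0 to 1860 counts and totals of 327162 or more. The ribosomal DNA target took 44.5% to 72.5% of the counts in those 6 wells and 16.9% to 47.1% in those 5 wells, against 5.98% to 14.1% and 7.04% to 25.02% in the others. The part of depth and RNA quality in the low CD44 values was not tested, and fewer CD44 transcripts cannot be told apart from less usable RNA in a well. Among the 31 wells with more than 1 count, CD44 ranged from 267 to 1138 CPM with kit #634413 and from 221 to 1200 CPM with kit #634444.

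**Figure D2:**
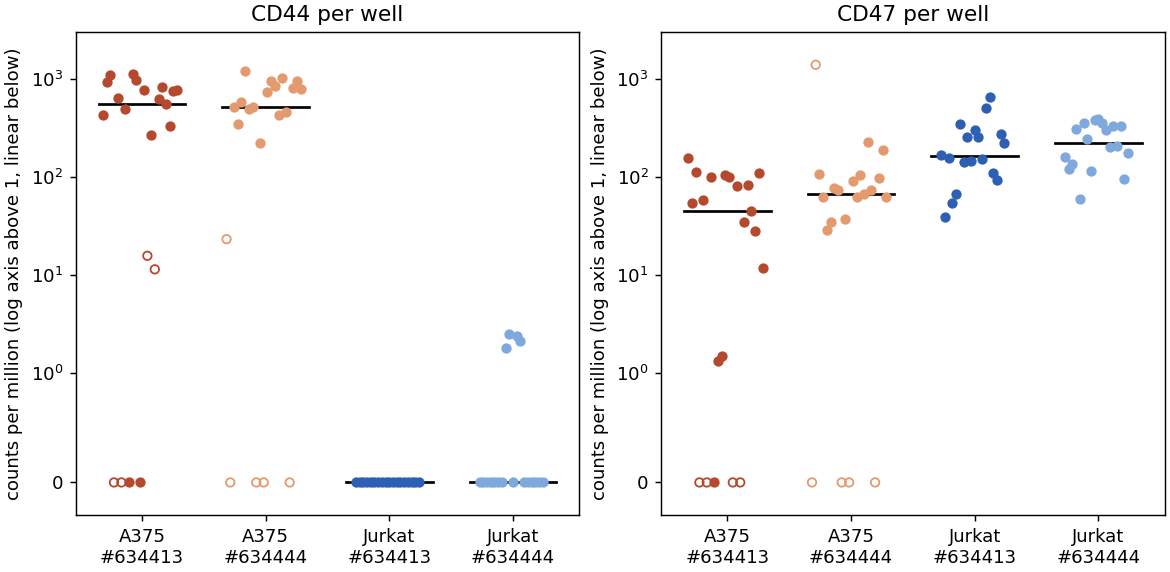
CD44 (left) and CD47 (right) in CPM for each well, by cell line and kit; filled points are wells with at least 25% of the median total, open points are shallower wells and lines are medians. A375 medians are 563 and 515 CPM for CD44, above every Jurkat well, while for CD47 the Jurkat medians (163 and 224 CPM) lie above the A375 medians (45.6 and 67.5 CPM).

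Pooled over wells, CD44 reached 685 CPM in A375 with kit #634413. The 18 Jurkat wells of that kit held 0 counts of CD44, which allows 0.191 CPM (3 counts over the group), so CD44 was at least 3593-fold higher in A375. With kit #634444, the pooled level was 675 CPM in A375 and 0.317 CPM in Jurkat from 4 counts, a ratio of 2129 (95% exact counting interval 831 to 7816). Intervals and floors cover counting error only, since amplified reads are not independent molecules. In edgeR's quasi-likelihood test, CD44 had Benjamini-Hochberg adjusted p = 5.71e-17 and 1.42e-17 for kits #634413 and #634444. It passed the filter on low counts only through the A375 wells, so the direction was fixed by the filter and these p-values add nothing to the counts above. In those fits, 22.9% of 11170 and 30.3% of 12257 genes were called. The fitted fold changes are not given, as they depend on the prior count when Jurkat is at the floor.

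CD47 showed the opposite order, with more RNA in Jurkat. With kit #634413, CD47 ranged from 0 to 155 CPM in A375 with a median of 45.6 CPM, and from 39.1 to 651 CPM in Jurkat with a median of 163 CPM. With kit #634444, A375 wells ranged from 0 to 1398 CPM with a median of 67.5 CPM, and Jurkat wells from 60.5 to 390 CPM with a median of 224 CPM. The value of 1398 CPM came from 1 count in a well with 715 counts on transcripts, and the deeper A375 wells of that kit reached at most 227 CPM. CD47 was detected in 36 of 36 Jurkat wells, in 16 of 21 A375 wells with kit #634413 and in 17 of 21 with kit #634444. The ranges of the lines overlapped with both kits.

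On the log2 scale, CD47 was lower in A375 than in Jurkat by −1.77 ± 0.53 (SE) with kit #634413, a 3.40-fold difference (edgeR, adjusted p = 0.00750). With kit #634444 the difference was −1.65 ± 0.44 (SE) or 3.14-fold (edgeR, adjusted p = 0.00189). The median of all genes lay at −0.13 and −0.22 in these fits. In wells with at least 25% of the median total the CD47 differences were −1.51 and −1.31, still past the threshold, with all-gene medians of 0.07 and 0.12. The lower CD47 level thus stood in the line that was stained for CD47 before sorting. The part of staining and gating in this difference was not tested.

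No difference between kits was called for either gene, and the intervals were wide. In A375, kit #634444 differed from kit #634413 by 0.09 ± 0.56 (SE, 95% interval −1.01 to 1.19) for CD44 and by 0.28 ± 0.48 (SE, 95% interval −0.65 to 1.22) for CD47 on the log2 scale. In Jurkat, the CD47 difference was 0.13 ± 0.30 (SE, 95% interval −0.46 to 0.72), and CD44 did not pass the filter on low counts. None was called by edgeR (adjusted p at least 0.9999 in each), where 9 of 12095 genes in A375 and 4 of 10624 in Jurkat were called, or 0.0744% and 0.0377%. The kit difference of CD47 was not shown to differ between the lines (interaction 0.20 ± 0.65, SE, edgeR adjusted p = 0.999992), in a fit that called 1.39% of 11609 genes. The same term of CD44 (edgeR adjusted p = 0.799) rests on the 4 Jurkat counts.

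Per length, CD44 exceeded CD47 in A375 and CD47 exceeded CD44 in Jurkat. Levels in transcripts-per-million (TPM), which account for target length, averaged 235 ± 205 for CD44 and 15.9 ± 19.5 for CD47 in A375 with kit #634413 (SD, n = 21). With kit #634444 they averaged 181 ± 141 and 36.2 ± 73.1 (SD, n = 21). Without the well of 715 transcript counts, in which 1 count gave 340 TPM, the CD47 mean was 21.01 ± 23.1 TPM (SD, n = 20), a value added after the data were seen. CD44 was higher in 17 of 21 wells of each kit, CD47 in 1, and the values were equal in 3. The mean log2 ratio of CD47 to CD44 was −3.47 ± 2.71 (SD) with kit #634413 (two-sided sign-flip permutation test, p = 8.00e-05) and −2.39 ± 2.87 (SD) with kit #634444 (p = 0.00149 from the same permutation test), with 1 TPM added to each value. In Jurkat, CD47 was higher in all 18 wells of each kit, with mean TPM of 54.3 ± 45.4 and 63.2 ± 44.3 (SD, n = 18). The log2 ratio was 5.33 ± 1.24 and 5.48 ± 1.11 (SD). CD44 had 0 or 1 count in each Jurkat well and CD47 was detected in all, so the direction was fixed. The size of the ratio depends on the 1 TPM added, and no p-value is given for Jurkat.

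Within a group, CD44 and CD47 levels were only weakly related across wells with at least 25% of the median total. Spearman's rho of their CPM was −0.07 over 17 A375 wells with kit #634413 and 0.26 over 16 A375 wells with kit #634444. Such wells share depth, and rho of CD44 with total counts was 0.38 and −0.07, so these values are a description.

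**Figure D3:**
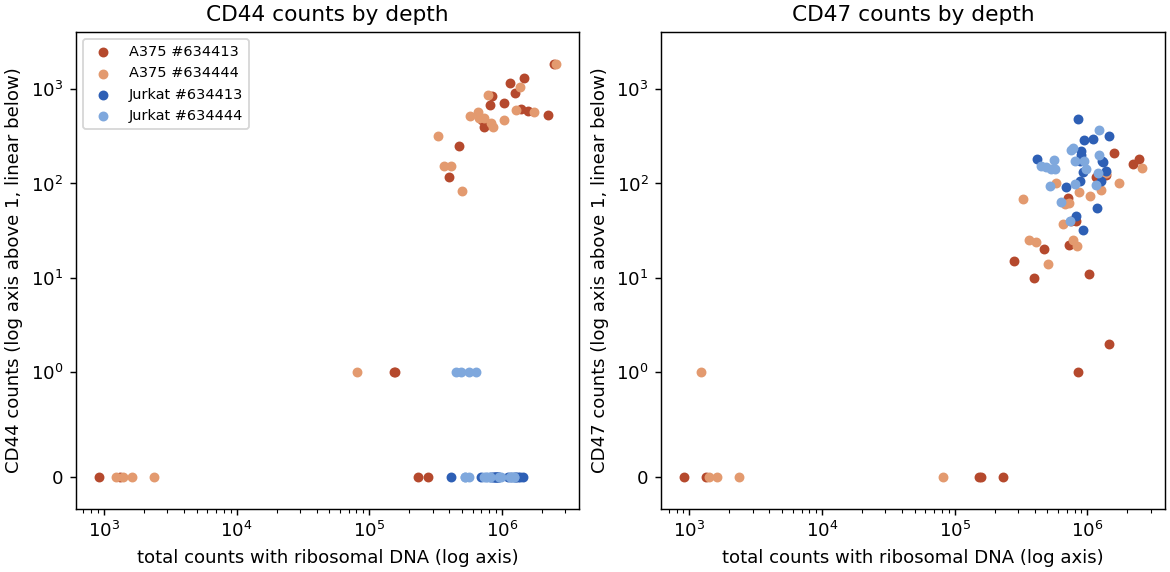
Estimated counts of CD44 (left) and CD47 (right) against the total counts of each well, on log axes that turn linear below 1. A375 wells with 327162 or more total counts hold at least 83.0 CD44 counts, while Jurkat wells of similar totals hold 0 or 1.

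Most CD44 counts in A375 were assigned to standard targets, mainly CD44-201. Its last exon has 3274 bases in GENCODE 44, and reads from the far 3′ end could come from any splice form. The shares below therefore do not measure how often the variable exons were skipped. Of the 38 CD44 targets, 32 had at least 1 count in some A375 well with kit #634413 and 30 with kit #634444, with medians of 7 and 8 targets per well among the 15 and 16 wells with at least 10 CD44 counts. CD44-201 alone held 65.7% ± 14.9 (SD, n = 15) of a well's CD44 counts with kit #634413, from 41.8% to 96.4%, and 67.2% ± 21.5 (SD, n = 16) with kit #634444, from 10.6% to 89.1%. It was the leading CD44 target by counts in 15 of 15 and 14 of 16 wells. The other leading targets were CD44-207, annotated for nonsense-mediated decay, and CD44-224, a short coding model without variable exons. In Jurkat, 3 of the 4 CD44 counts were assigned to CD44-201 and 1 to CD44-220, a partial model with v3.

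Coding transcripts were grouped as standard (no variable exon) or variant (at least 1 variable exon), and the remaining transcripts as other. The standard class also holds a target wholly downstream of the variable block and a target wholly upstream of it. Neither can show whether variable exons were skipped. The downstream target averaged 3.49% of CD44 counts with kit #634413 and 1.26% with kit #634444. The upstream target averaged 0% and 0.172%. Standard transcripts took 74.2% ± 12.8 (SD, n = 15) of CD44 counts for kit #634413 and 76.05% ± 18.5 (SD, n = 16) for kit #634444. Variant transcripts took 14.2% ± 11.6 (SD, n = 15), from 0% to 45.2%, and 9.91% ± 6.37 (SD, n = 16), from 0.428% to 23.5%. The others took 11.6% ± 8.79 (SD, n = 15) and 14.04% ± 13.5 (SD, n = 16). The variant share differed by −4.27 ± 3.40 percentage points (SE) between kits, kit #634444 minus kit #634413, and the test over 19 share comparisons did not call it (permutation p = 0.221, adjusted p = 0.797). Neither the standard share (1.80 ± 5.67 points, SE, permutation adjusted p = 0.872) nor the other share (2.47 ± 4.06 points, SE, permutation adjusted p = 0.824) was called.

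**Figure D4:**
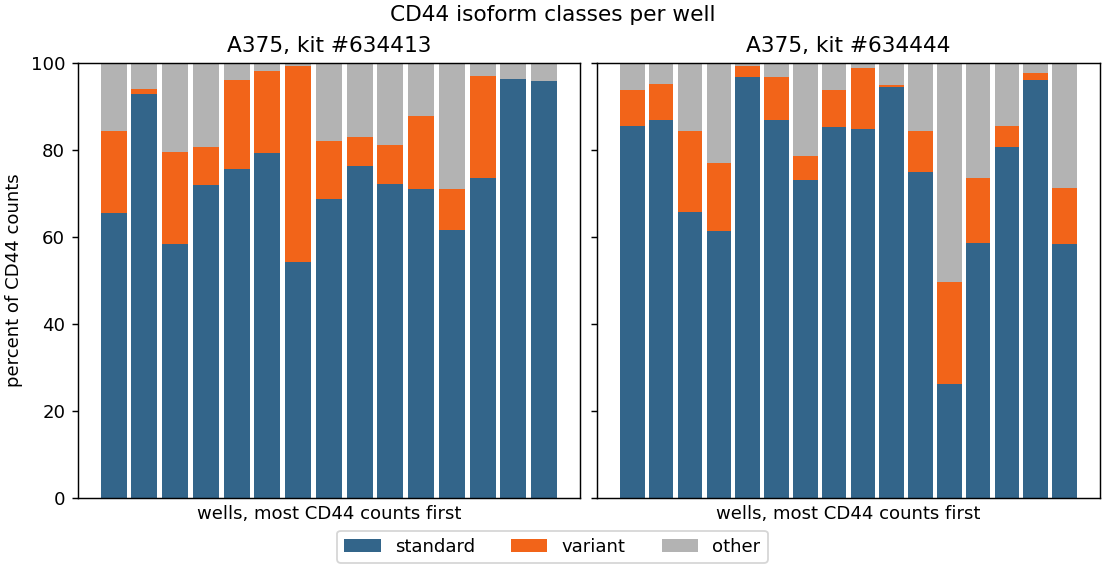
Percent of the CD44 counts of each A375 well in standard, variant and other transcripts, for the 15 wells of kit #634413 and the 16 of kit #634444 with at least 10 CD44 counts, ordered by CD44 counts. The standard class averages 74.2% and 76.05%, and the variant class reaches 45.2% in its highest well. Reads from the far 3′ end may count as standard whatever their splice form.

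CD44-210, whose only variable exon is v10, was the leading variant transcript. It held 6.39% ± 8.58 of CD44 counts (SD, n = 15), up to 31.98% of a well, with kit #634413, and 4.66% ± 5.29 (SD, n = 16), up to 18.2%, with kit #634444. It had no count in 5 of 15 and 7 of 16 of these wells. In all, the 4 complete variant models held 8.19% ± 9.17 and 4.89% ± 5.21 of the counts (SD, n = 15 and 16), and the 13 partial ones 5.999% ± 4.31 and 5.02% ± 5.22. Targets with v10 took 10.4% ± 9.79 and 7.43% ± 6.94 of the counts (SD), whereas those with v2 took 1.0002% ± 2.57 and 0.975% ± 2.36. Between these, the mean share of targets with v3 to v9 ranged from 2.03% for v7 with kit #634444 to 6.08% for v8 with kit #634413. From v3 to v10 these shares also count targets of the other class, such as CD44-227 (v8 and v9), with 1.63% of counts for kit #634413. They are thus not shares of coding variant transcripts alone. Targets share exons, so these shares overlap.

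By TPM, the standard class was smaller. It took 46.1% ± 19.2 (SD, n = 15) and 48.9% ± 21.2 (SD, n = 16) of CD44 TPM, the variant class 26.4% ± 20.03 and 22.7% ± 12.4, and the others 27.5% ± 16.8 and 28.4% ± 17.4. The length correction gives weight to short targets. Partial variant models, with 5.999% of the counts, held 18.01% of TPM with kit #634413. CD44-201 led by TPM in 5 of 15 and 9 of 16 wells.

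No test between lines is given for CD44 transcripts, since CD44-201 and CD44-210 passed the filter only through A375 wells. With kit #634413 both were at 0 in all 18 Jurkat wells, and CD44-201 had 6974 counts and CD44-210 735 counts over the 21 A375 wells. Between kits in A375, CD44-201 differed by 0.31 ± 0.69 (SE) and CD44-210 by −0.24 ± 0.83 (SE) on the log2 scale, and neither was called by edgeR (adjusted p = 0.9999 for each), in a fit that called 0.031% of 16127 transcripts. No difference between kits was called in the mix of the 5 CD44 transcripts that passed the filter (edgeR's transcript usage test, adjusted p = 0.976), in a test that called 0.0543% of 3686 genes. Between lines, the test of the CD44 mix with kit #634413 rested on 2 transcripts at 0 in Jurkat (edgeR's usage test, adjusted p = 0.401) and says nothing of the mix in Jurkat, and with kit #634444 no more than 1 CD44 transcript passed the filter.

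CD44-AS1, a long noncoding RNA on the opposite strand (chr11:35210343-35214985) that overlaps v10, had counts in 9 of 21 A375 wells with kit #634413 (up to 50 counts) and in 10 of 21 with kit #634444 (up to 52 counts). In Jurkat it was at 0 in all 18 wells of kit #634413 and had 1 count in 1 well of kit #634444. The authors quantified reads with their strand, and CD44-AS1 was not among the members counted above.

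CD47 counts in single wells were spread unevenly over few transcripts. Wells with at least 10 CD47 counts held 1 to 4 of the 5 targets in A375 and in Jurkat with kit #634413, and 2 to 4 in Jurkat with kit #634444. A single target held over 90% of the CD47 counts in 6 of 14 A375 wells with kit #634413, where CD47 had 11 to 120 counts. The same was seen in 2 of 16 A375 wells with kit #634444, in 3 of 18 Jurkat wells with kit #634413 (55 to 295 counts) and in 0 of 18 with kit #634444. With kit #634413, CD47-201 held over 90% in 3 of the 6 A375 wells, CD47-204 in 2 and CD47-202 in 1.

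The short tail form CD47-201 held the largest mean share of counts in every group. In A375, kit #634413 gave a share of 50.8% ± 38.6 (SD, n = 14) and kit #634444 one of 62.8% ± 22.7 (SD, n = 16). In Jurkat it averaged 36.6% ± 35.5 and 47.2% ± 28.8 (SD, n = 18 each). Single wells covered 0% to 100% in A375 with kit #634413 and 31.5% to 100% with kit #634444, and in Jurkat 0% to 100% and 0% to 89.4%. The differences between lines, 14.2 ± 13.3 points (SE, permutation p = 0.283) with kit #634413 and 15.6 ± 8.84 points (SE, permutation p = 0.0880) with kit #634444, had adjusted p = 0.797 each over the 19 permutation comparisons.

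The long tail forms CD47-202 and CD47-203 took 25.6% ± 29.8 (SD, n = 14) and 23.6% ± 18.04 (SD, n = 16) of CD47 counts in A375, and 25.2% ± 24.9 and 29.6% ± 26.3 (SD, n = 18 each) in Jurkat, with kits #634413 and #634444. Of these, CD47-202 held nearly all: CD47-203 averaged at most 2.31% in a group. The middle tail form CD47-205 averaged from 1.89% in A375 with kit #634444 to 4.95% in Jurkat with kit #634413, with a median of 0% in each group. None of the 8 differences in long and middle tail shares between lines or kits passed the permutation test (adjusted p from 0.824 to 0.954), and the largest in size was −5.96 ± 7.67 points (SE) for the long tail, A375 minus Jurkat, with kit #634444.

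The retained-intron transcript CD47-204 averaged 21.1% ± 38.3 (SD, n = 14) and 11.7% ± 15.1 (SD, n = 16) of CD47 counts in A375, and 33.3% ± 33.2 and 20.1% ± 21.4 (SD, n = 18 each) in Jurkat. It was detected in 15 and 14 of 18 Jurkat wells, and in 5 and 9 of 21 A375 wells. Its share was lower in A375 by 12.2 ± 12.9 and 8.42 ± 6.29 points (SE), differences that were not called (permutation adjusted p = 0.797 for each).

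**Figure D5:**
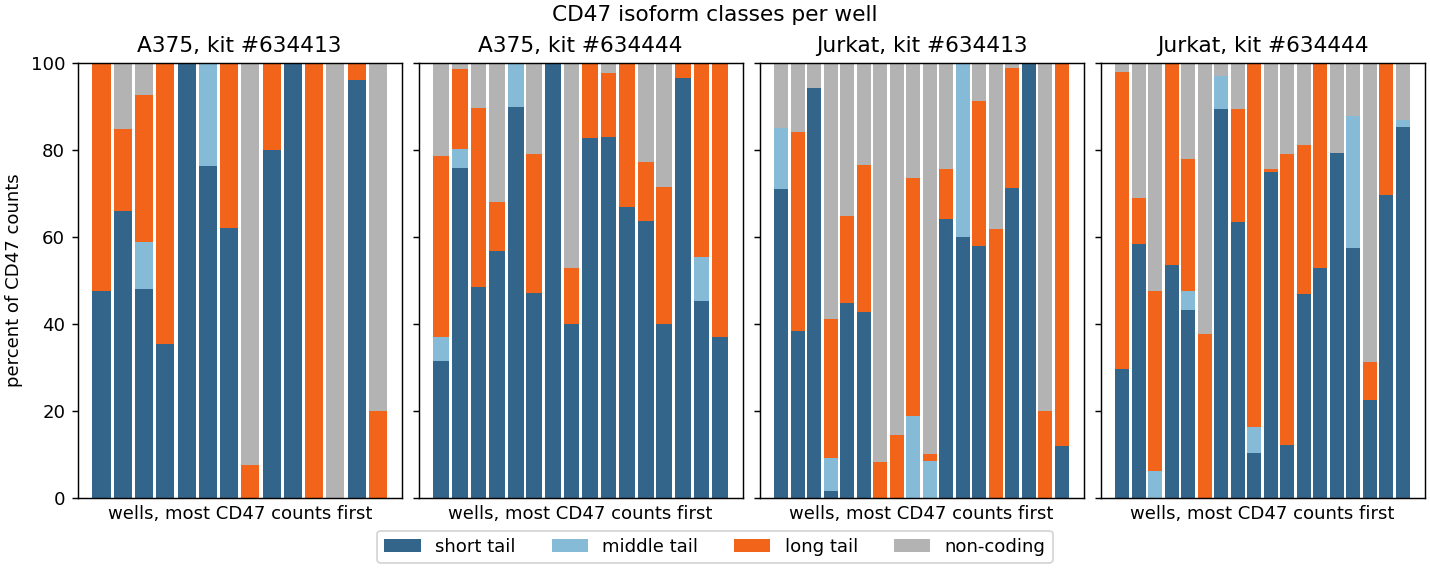
Percent of the CD47 counts of each well in short tail, middle tail, long tail and non-coding transcripts, by cell line and kit, for wells with at least 10 CD47 counts, ordered by CD47 counts. Wells of 1 group range from 0% to 100% short tail in A375 and in Jurkat with kit #634413. Those wells hold as few as 10 CD47 counts in A375 and 32 in Jurkat. The spread between wells was not tested against that between groups.

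Per length, the order of the CD47 forms changed. CD47-202 held the largest mean share of CD47 TPM in each group, 39.2% ± 37.4 and 40.8% ± 26.05 in A375 and 42.5% ± 33.8 and 43.4% ± 31.7 in Jurkat (SD, n = 14, 16, 18 and 18), against 29.5%, 37.1%, 22.6% and 27.3% for CD47-201. Which tail form leads thus depended on whether counts or TPM were used.

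At the transcript level, all 3 CD47 transcripts that passed the filter in both fits had lower values in A375, and 1 was called with 1 kit, in fits that called 11.5% of 13494 transcripts with kit #634413 (6.63% higher and 4.86% lower in A375) and 14.8% of 17692 with kit #634444 (7.73% higher and 7.05% lower). CD47-202 was lower by −2.27 ± 0.80 (SE) with kit #634444 (edgeR, adjusted p = 0.0425) and by −1.33 ± 1.002 (SE) with kit #634413 (edgeR, adjusted p = 0.482). It was not called with kit #634444 in the deeper wells, at −1.89 (edgeR, adjusted p = 0.134). CD47-204 had differences of −2.89 ± 1.05 (SE, edgeR adjusted p = 0.0571) and −2.08 ± 0.88 (SE, edgeR adjusted p = 0.110). CD47-201 had −1.36 ± 0.94 (SE, edgeR adjusted p = 0.429) and −1.001 ± 0.63 (SE, edgeR adjusted p = 0.332). Between kits in Jurkat, 4 CD47 transcripts were tested and none was called by edgeR (adjusted p = 0.9997 for each), in a fit that called 0.211% of 16135 transcripts. The usage of CD47 transcripts was not called different between lines (edgeR's usage test, adjusted p = 0.807 with kit #634413 and 0.683 with kit #634444), where 2.51% of 3067 and 3.2% of 4213 genes were called. Nor was it called between kits in A375 (edgeR adjusted p = 0.976) or in Jurkat (edgeR adjusted p = 0.991, where 0.435% of 3907 genes were called). The uncertainty of assigning reads to transcripts is not part of these p-values.

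Partners of CD44 and CD47 were compared between lines from lists of genes, and all counts are from edgeR at an adjusted p under 0.05. Over all genes tested, 12.2% were called higher and 10.7% lower in A375 with kit #634413, and 14.1% higher and 16.2% lower with kit #634444. A gene at or near 0 in a line passed the filter only through the other line, so for such genes the direction was fixed and the wells with counts are given. Of the CD44 ligands and co-receptors, all 4 that were tested of 8 were called with both kits, 3 higher and 1 lower in A375, against 22.9% and 30.3% of all genes called. CD74, a receptor that signals with CD44, had counts in 15 and 16 of 21 A375 wells and in 0 and 2 of 18 Jurkat wells with kits #634413 and #634444. MET, the receptor of hepatocyte growth factor, had counts in 15 and 16 A375 wells and in 0 and 1 Jurkat wells. LGALS9, a galectin that binds CD44 and the member called lower, had counts in 4 and 6 A375 wells and in 17 and 18 Jurkat wells. Its medians were 0 CPM in A375 with each kit and 66.26 and 89.97 CPM in Jurkat, so its direction was fixed. With kit #634444 its mean was nevertheless higher in A375, at 121 ± 553 CPM (SD, n = 21), than in Jurkat, at 90.17 ± 55.72 CPM (SD, n = 18). In the list of hyaluronan synthesis, turnover and other receptors, 4 and 3 of 14 genes were tested, with 1 higher and 1 lower in A375 with kit #634413 (median −1.20) and 1 higher and 0 lower with kit #634444 (median −0.57). CEMIP2, a hyaluronidase of the cell surface, had counts in 15 A375 wells of each kit and in 4 and 9 Jurkat wells. Its medians were 70.8 and 120 CPM in A375 and 0 and 3.64 CPM in Jurkat. The member called lower, named after its value was seen, was HMMR, a hyaluronan receptor tied to cell division, at −3.58 ± 0.87 with kit #634413 (SE, edgeR adjusted p = 0.000784) and −0.89 ± 0.79 with kit #634444 (SE, edgeR adjusted p = 0.4297).

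Of the 8 CD44 membrane linkers, all tested, 3 were lower with kit #634413, and 4 were lower and 1 higher with kit #634444, with medians of −1.44 and −1.25, against 10.7% and 16.2% of all genes lower and 12.2% and 14.1% higher. With library size alone and in the deeper wells 2 linkers were higher with kit #634444. MSN (moesin), which ties the CD44 tail to actin, had medians of 219 and 128 CPM in A375 and 1027 and 909 CPM in Jurkat, lower in A375 by −2.26 ± 0.46 and −2.73 ± 0.48 (SE, edgeR adjusted p = 3.92e-05 and 1.92e-06). The Src family kinases LCK and FYN were lower as well. LCK, a T cell kinase that also stands in the T cell marker list, had counts in 1 of 21 A375 wells and 18 of 18 Jurkat wells of each kit. FYN was lower by −1.74 ± 0.57 and −2.04 ± 0.48 (SE, edgeR adjusted p = 0.0160 and 0.000393).

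Of 10 tested genes of CD44 shedding and cleavage, 4 were higher in A375 with each kit and 0 were lower, against 12.2% and 14.1% of all genes higher and 10.7% and 16.2% lower. With kit #634444, 1 gene was lower under DESeq2, with library size alone and in the deeper wells, where 4, 5 and 6 were higher. That gene, named after its values were seen, was ADAM10, a protease that sheds CD44, at −1.09 ± 0.45 (SE, edgeR adjusted p = 0.0548). Of those higher, TIMP3 and TIMP1, inhibitors of the metalloproteinases that cut CD44, and PSEN2, a subunit of gamma-secretase, were at 0 in all 18 Jurkat wells of kit #634413. TIMP3 had a median of 105 and 79.001 CPM in A375, TIMP1 67.9 and 121 CPM, and PSEN2 8.88 and 8.98 CPM. The other gene called higher with both kits, named after its values were seen, was MMP14, a membrane metalloproteinase. It had counts in 15 A375 wells of each kit and in 0 and 3 Jurkat wells. The members that were higher thus include inhibitors, a protease subunit and a protease. Of 14 tested regulators of CD44 splicing, 2 and 4 were lower in A375 and 0 were higher, with medians of −0.85 and −0.93, and 10.7% and 16.2% of all genes were called lower. HNRNPL was lower by −1.57 ± 0.44 and −1.41 ± 0.45 (SE, edgeR adjusted p = 0.00449 and 0.0106), and PCBP1 by −1.48 ± 0.49 and −1.39 ± 0.44 (SE, edgeR adjusted p = 0.0171 and 0.00947). Both proteins bind RNA. With the same filter, DESeq2 called 8 and 9 members of this list lower and edgeR with library size alone 4 and 10. In the deeper wells of kit #634444 edgeR called 7 lower and 1 higher, which was SND1, named after its value was seen (0.79 ± 0.19, SE, edgeR adjusted p = 0.000967).

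Of the CD47 ligands, counter-receptors and maturation enzymes, 6 and 9 of 12 were tested. Of these, 3 were higher and 2 lower in A375 with kit #634413, and 5 were higher and 2 lower with kit #634444, against 12.2% and 14.1% of all genes higher and 10.7% and 16.2% lower. THBS1, which encodes the CD47 ligand thrombospondin-1, had counts in 13 and 14 of 21 A375 wells and in 3 and 2 of 18 Jurkat wells, with A375 medians of 23.7 and 59.8 CPM. LRP1, a receptor of calreticulin on phagocytes, had counts in 18 and 17 A375 wells and in 6 and 9 Jurkat wells. Its medians were 176 and 180 CPM in A375 and 0 and 2.51 CPM in Jurkat. PTPN6, the phosphatase SHP-1 that acts below SIRPA, had counts in 1 of 21 A375 wells of each kit and in 16 and 15 of 18 Jurkat wells.

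Of 12 tested CD47 membrane partners and tail binders, 6 and 5 were lower in A375 and 1 was higher, with medians of −1.25 and −1.13, against 10.7% and 16.2% of all genes lower and 12.2% and 14.1% higher. With kit #634444, library size alone and the deeper wells each gave 6 lower and 3 higher. These 3, named after their values were seen, were the integrin chains ITGB3, ITGB1 and ITGAV, of which ITGB3 was the 1 called above. The integrin chains ITGAL and ITGB2, which pair as LFA-1 on leukocytes, led with ITGA4. ITGB2 was at 0 in all 42 A375 wells and had medians of 98.8 and 128 CPM in Jurkat. ITGAL had counts in 1 and 2 of 21 A375 wells and in 17 and 18 of 18 Jurkat wells. ITGA4 was lower in A375 by −4.57 ± 0.54 and −4.57 ± 0.53 (SE, edgeR adjusted p = 2.46e-11 and 1.35e-11). A further list was named other surface shields against phagocytosis, a role that was not tested here for any member. Of its 8 genes 6 were tested, with 1 higher and 2 lower in A375 with kit #634413 and 2 of each with kit #634444. CD99 had counts in 7 and 13 A375 wells and in all 18 Jurkat wells of each kit. Its medians were 0 and 2.60 CPM in A375 and 483 and 444 CPM in Jurkat. CD55, which slows complement, had counts in 17 and 16 A375 wells and in 3 and 7 Jurkat wells, with Jurkat medians of 0 CPM. CD81, a tetraspanin and the antigen stained on Jurkat, was lower by −1.47 ± 0.55 and −1.30 ± 0.48 (SE, edgeR adjusted p = 0.0404 and 0.0292), but missed the threshold in the deeper wells at −1.22 and −0.96 (edgeR adjusted p = 0.0555 and 0.0524). In the marker lists, all 12 T cell markers were lower in A375 with each kit. Each had an A375 median of 0 CPM, so the filter fixed the direction. Of the 12 melanoma line markers only 5 and 6 were tested, and 4 and 6 of these were higher. The 4 called with both kits had Jurkat medians of 0 CPM, so their direction was fixed as well. SERPINE2 alone averaged 2749 and 2854 CPM in A375, where the summed melanoma line list had medians of 3547 and 3895 CPM.

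Over the 69 wells with at least 25% of the median total, the genes whose CPM followed CD44 most closely were SEMA3A, MFAP2, FMN1, FKBP10 and RASSF8, with Spearman's rho from 0.913 to 0.920 among 12562 genes. Those closest to CD47 were CD3E, ARPP21, CXCR4, RESF1 and CBX1, with rho from 0.679 to 0.711 among 10865 genes. All 5 genes like CD44 had higher mean CPM in A375 with both kits, and all 5 like CD47 in Jurkat. The wells come from 2 lines, so these values mostly rank genes by the line in which they are high.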

How the data were processed

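Total RNA of 78 single A375 and Jurkat cells was measured. The authors ran cutadapt on the reads and then Kallisto in stranded mode against Ensembl v91 (version 0.43.1 in the submitters' processing notes, which also name STAR 2.5.3 and hg38). They deposited estimated counts without normalization. TPM, scaled by effective length, stood beside them in the deposited tables. The members and lists were chosen with earlier results of these data known.

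Transcripts were assigned to genes through GENCODE v44. Their summed, rounded counts entered edgeR 4.0.16 in R 4.3.3 (TMM, glmQLFit, glmQLFTest, diffSpliceDGE) where 25% or more of a fit's wells had 5 or more counts, after leaving out the ribosomal DNA target, which took 5.98% to 72.5% of a well's counts. Calls had a Benjamini-Hochberg adjusted p under 0.05. Isoform shares were taken in wells with at least 10 counts of the gene and compared by permutation of wells with 100000 resamples, all two-sided. The SE of an edgeR log2 fold change was taken as its absolute value over the square root of the quasi-likelihood F statistic. The 95% intervals of log2 fold changes are 1.96 such SE and are approximate.

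Total counts, ribosomal DNA included, ranged from 909 to 2567265 per well. No 2 wells held identical values (0 wells). The genes named are CD44, CD47, their transcripts, up to 3 genes per list with the smallest adjusted p (the larger of the kits) among those called in the same direction with both kits, and the 5 genes most like each member by rho of log2(CPM + 1). Alternatives were DESeq2 1.42.0 with poscounts, library size alone, features with 1 count in 3 wells, wells with at least 203424 total counts, Simes combination of usage, TPM, other minimums and pooled counts. The edgeR test was checked on simulated data. A first check with 4-fold changes failed because most were missed, so 16-fold changes were added and the requirement for 4-fold changes was reduced to direction, size and false calls, which held. A 4-fold change that was not called here may therefore exist. The usage test missed more than it found of strong simulated switches between 2 transcripts, and its false calls, like those of the gene test at 16-fold, exceeded the nominal rate. Sequences were read from GRCh38 by the coordinates of GENCODE v44. Python 3.11.15, numpy 2.4.6, pandas 2.3.3, scipy 1.17.1 and matplotlib 3.10.9 were used.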

Additional observations from a re-analysis of the deposited data

How the results depend on the processing

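Of the main results, 189 comparisons with an alternative kept their direction, their side of the threshold and, for counts, a value within 1.5 times. Of the rest, 25 moved, 5 reversed direction and 1 became stronger. The CD47 call between lines held with each kit under DESeq2, library size alone, the low filter and the deeper wells. With the low filter (1 count in 3 wells), edgeR called 7560 and 9294 genes between lines with kits #634413 and #634444, 3099 for the interaction, 1929 between kits in A375 and 1467 in Jurkat. At the transcript level it called 21312 and 25052 between lines, 10305 between kits in A375 and 9022 in Jurkat, and for usage 6057, 6288, 4752 and 4019, with CD44 usage between kits in A375 at adjusted p = 0.00935. The cause was not tested. DESeq2 called 24 genes for the interaction, 19 between kits in Jurkat and 8 transcripts between kits in A375. Library size alone gave 28 transcripts between kits in A375. The deeper wells gave 1 gene, 8 transcripts and 5 genes with changed usage between kits in A375. Simes combination of usage gave 47 and 58 genes between lines, 1 between kits in A375 and 10 in Jurkat.

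Small differences changed sign without being called. With TPM these were the CD47 middle tail share (0.545 points) and long tail share (2.23 points) between kits in A375, and the long tail (−0.320 points) and non-coding (1.82 points) shares between lines with kit #634413. With at least 20 counts of CD47, the non-coding share between kits in A375 was 1.99 points. CD47-204 between kits in A375 was 0.28 with library size alone, 0.40 with the low filter and 0.35 in the deeper wells. CD47-202 between lines with kit #634444 was not called with the low filter (adjusted p = 0.0586) or in the deeper wells (adjusted p = 0.134), and CD47-204 with kit #634413 was called with library size alone (adjusted p = 0.0496) and with the low filter (adjusted p = 0.0339). At 5 or more counts, CD44 was found in 0 Jurkat wells of kit #634444. Causes were not tested. Depth limits the isoform shares, which rest on as few as 10 CD47 counts per well. No paired analysis was possible because the labels give no replicate numbers shared between groups.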
